A study of Mus musculus with 3 samples.

Results

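Among barcodes that occurred in all 3 organoid libraries, 150 were selected on measured UMIs of Madcam1, Coch and Postn, genes of the floor of the lymph node subcapsular sinus. A barcode is the tag of 1 droplet, and a UMI (unique molecular identifier) tags 1 captured RNA molecule. Of 3195 shared barcodes, 50 had over 20% of UMIs from mitochondrial genes and were left out. The 150 members were chosen by at least 3 UMIs of Madcam1, Coch and Postn together, with no UMI of Ackr1, Fut7 or Ackr4. They made up 4.77% of the 3145 shared barcodes kept (95% Clopper-Pearson interval 4.05 to 5.57%), and the other 2995 served for comparison.

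The 3 libraries, 1 a genotype, were small intestinal organoids from C57BL/6 mice. All mice were given 2 doses of 2 mg tamoxifen at 7 to 8 weeks of age, and the organoids were cultured to day 6 of passage 3. WT mice were analyzed 21 days after tamoxifen, LApc mice after 29 days and LApcL mice after 21 days. LApc and LApcL mice both carried Lgr5-CreERT2 and Apc fl/fl, and LApcL mice also Lef1 fl/fl. The Cre is driven from Lgr5, a gene of intestinal stem cells, and tamoxifen activates it. The labels give no number of mice per library and speak of sorted cells without naming the gate, and nothing measures the spread between animals. All intervals are at the 95% level and cover counting error only.

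Lymph enters a lymph node through a sinus lined by lymphatic endothelial cells. Cells of the ceiling, next to the capsule, carry the chemokine scavenger Ackr4, and cells of the floor, next to the lymphocytes, carry the adhesion molecule Madcam1. Lymphatic cells of the medullary sinuses carry scavenger receptors such as Marco. Lymphocytes come in from blood through high endothelial venules, which carry Ackr1, the fucosyltransferase Fut7 and the sulfated mucin Glycam1. Prox1 is the transcription factor that specifies lymphatic endothelium.

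The members were the same barcode strings in each library, and 3 of them are shown because they had the most UMIs in the WT matrix.
Member with the most UMIs: tagcacacatgacccg
Member with the second most: ctaagtgcaaagggct
Member with the third most: cgacagcagctccgac
The first held 12379, 8460 and 9288 UMIs in the WT, LApc and LApcL matrices, with 39 UMIs of the 3 selecting genes in WT. The second held 8834, 1400 and 1457 UMIs, and the third 8492, 5796 and 6307. The second therefore stood apart from the others.

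Over all members the median depth in those matrices was 3668.5, 2474.0 and 2669.5 UMIs. The log10 UMI counts of the members correlated between WT and LApc with a Pearson r of 0.962 and between WT and LApcL with 0.961 over 150 barcodes, which are counts of the same strings. For 149 of 150 member profiles in each of LApc and LApcL, the most similar WT profile among the members was that of the same barcode. The median cosine to the WT profile of the same barcode was 0.651 in LApc and 0.667 in LApcL, against 0.464 and 0.469 to other members. The 3 matrices therefore hold no independent replicates of these cells, levels below are from the WT matrix, and no genotype is compared.

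**Figure D1:**
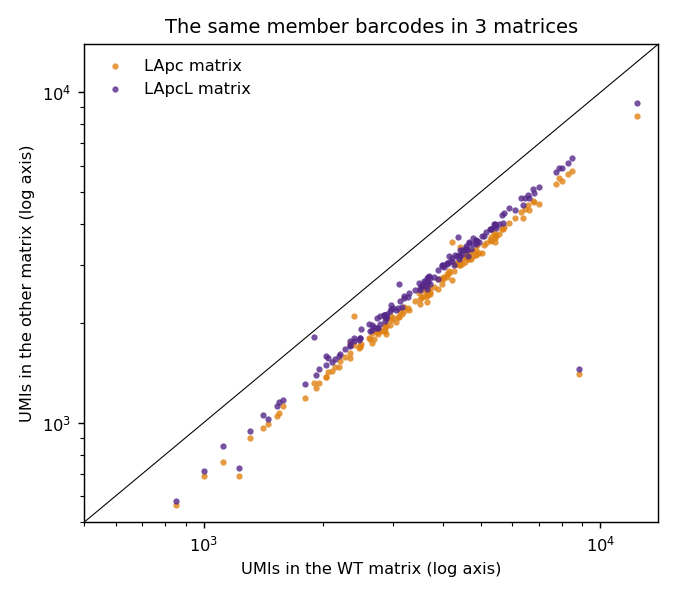
UMIs of each of the 150 members in the WT matrix (x axis, log scale) against the LApc and LApcL matrices (y axis, log scale); the line marks equal counts. The ratio of WT to LApc UMIs had a median of 1.47 and was at most 1.78 in all members but 1, which had 6.31 and lies at the lower right.

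Gating each matrix by its own counts gave 116 members in LApc and 122 in LApcL. Of these, 100 and 103 were also members in WT, which was 86.2% and 84.4% of the members in those matrices and 66.7% and 68.7% of the WT members.

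The promoters of 3 genes are printed because they mark the cells: Madcam1 selected them, C3 is their further marker, and Ccl20 had the highest ratio to the other shared barcodes among genes with a mean of at least 50 CPM, the selecting genes left out. Each is the 250 bases before the gene's start on its own strand (RefSeq, GRCm38.p6), with matches to the kappaB consensus, the motif of NF-kappaB, in capitals.
Madcam1, chr10:79664309-79664558, plus strand: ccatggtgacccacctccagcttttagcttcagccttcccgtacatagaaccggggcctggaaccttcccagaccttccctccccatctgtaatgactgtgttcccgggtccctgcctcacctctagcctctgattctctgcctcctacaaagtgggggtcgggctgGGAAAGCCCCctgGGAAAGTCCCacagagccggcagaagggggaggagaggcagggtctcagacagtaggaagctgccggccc
Ccl20, chr1:83116516-83116765, plus strand: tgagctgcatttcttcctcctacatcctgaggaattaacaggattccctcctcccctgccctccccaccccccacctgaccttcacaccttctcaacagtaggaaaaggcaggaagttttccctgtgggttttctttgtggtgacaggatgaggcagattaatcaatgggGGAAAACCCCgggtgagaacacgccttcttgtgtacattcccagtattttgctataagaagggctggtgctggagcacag
C3, chr17:57228137-57228386, minus strand: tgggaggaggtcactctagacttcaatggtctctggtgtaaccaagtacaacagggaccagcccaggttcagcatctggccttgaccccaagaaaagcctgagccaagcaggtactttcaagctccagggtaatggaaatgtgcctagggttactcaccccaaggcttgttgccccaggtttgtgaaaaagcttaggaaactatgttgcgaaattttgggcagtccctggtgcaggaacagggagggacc
Madcam1 held 2 matches, beginning 83 and 70 bases before the start, and Ccl20 held 1, beginning 80 bases before it. The C3 window held none. Both strands were searched, and no other motif was. Of 32851 promoter windows of this length, 7.25% held a match. Of 14 symbols searched, 9 had an entry, and 3 of those (Madcam1, Ccl20 and Nfkb2) held a match. A symbol was counted if any of its windows held a match, and the symbols were a chosen set. This count and the share of windows are therefore unlike measures. Bmp2, Msr1, Cfb, Vcam1 and Relb had no entry.

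Postn, which encodes the matrix protein periostin, contributed most to the selection. It was detected in 140 members, Madcam1 in 80 and Coch, which encodes the secreted protein cochlin, in 45. Postn had the most UMIs of the 3 in 110 members, Coch in 17 and Madcam1 in 14, and 9 were tied. All 3 genes were detected in 27 members, 2 of them in 61 and 1 in 62. Madcam1 and Coch were found together in 30 members, and 55 had no UMI of either, so that the name Madcam1-positive does not hold for every member. The sum of the 3 had a median of 5 and a maximum of 39 UMIs.

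**Figure D2:**
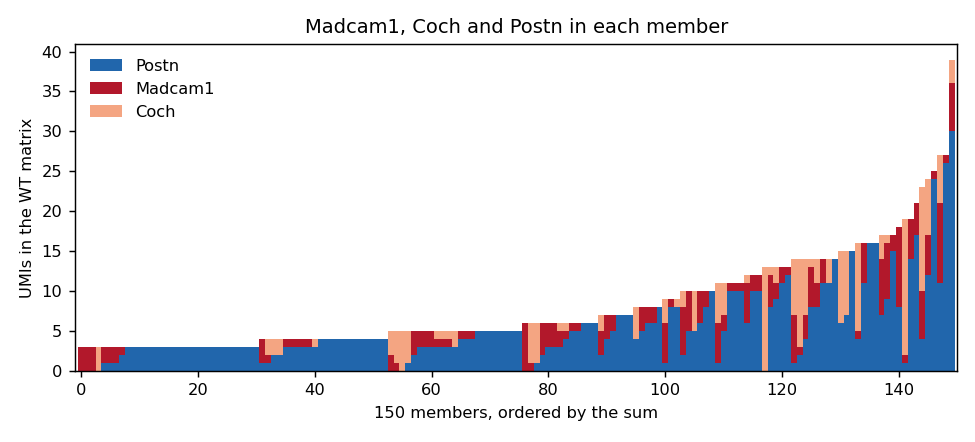
UMIs of Postn, Madcam1 and Coch in the WT matrix (stacked bars, y axis) for each of the 150 members (x axis, ordered by their sum). Postn fills most bars, and 31 members sit at the threshold of 3 UMIs.

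Of the barcodes that met the exclusions, 31 had a sum of 3, just inside the threshold, and 42 had a sum of 2, just outside. C3 stood at 942 CPM (UMIs scaled to a total of 1000000; 762 to 1151) just inside and 716 CPM (587 to 866) just outside. Marco stood at 2805 CPM just inside, 4210 CPM just outside and 941 CPM in members with 4 or more. Glycam1 stood at 2339, 730 and 7332 CPM in the same order. Before the exclusions, 171 barcodes reached 3 UMIs. The exclusions took out 13 with Ackr1 or Fut7, 9 with Ackr4, and 1 of those had both.

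The labels name intestinal organoids, but epithelial genes were near 0 in the members. Epcam, an adhesion molecule of epithelium, had 8 UMIs in 2 members. The 7 epithelial genes examined had UMIs in 15 members, and the summed level was 112 CPM, against 17.4 CPM in the other shared barcodes. 1 member, the second barcode shown above, held 51 of these UMIs and 12.2% mitochondrial UMIs. It held 0 epithelial UMIs in the LApc matrix and 0 in LApcL, while the genes of the selection summed to 4 UMIs in the WT matrix, 6 in the LApc matrix and 3 in the LApcL matrix.

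Reticular stromal cells can also carry Madcam1, and 12 of their genes were examined. Stromal UMIs were found in 20 members at a summed 294 CPM, against 56.3 CPM in the others, but 1 member held 152 of them among its 4545 UMIs. That member held all 61 Col3a1 UMIs of the members, no Prox1 and no Pecam1, and it held 101 stromal UMIs in LApc and 113 in LApcL. Tnfsf11, Cr2 and Dpt were at 0 in the members, while Ccl19 had a UMI in 9 members (6.00%) and in 4 of the others (0.134%). Of 9 immune genes, 5 were at 0, Ptprc among them, and 10 members had a UMI of any. The 2 members with at least 10 stromal or epithelial UMIs were kept in the values. Without them the summed epithelial level was 26.1 CPM and the summed stromal level 36.5 CPM. Of the lists below, the matrix list was the only one whose counts differed without them.

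Members were also set beside 3 like groups of shared barcodes. Of 423 other shared barcodes with an Ackr4 UMI, the 392 with no UMI of Ackr1 or Fut7 made the Ackr4-positive group. Of 314 with a Marco UMI, the 262 with no UMI of Ackr1, Fut7 or Ackr4 made the Marco-positive group. The high endothelial group was 282 barcodes with at least 3 UMIs of Ackr1 and Fut7 together. Median depth was 3668.5 UMIs in members, 2894.0 in Ackr4-positive, 2593.5 in Marco-positive, 4122.5 in high endothelial and 2138.0 in all other shared barcodes. Because the selection asks for UMIs, deeper barcodes pass it more easily. Shares of barcodes with a UMI are therefore given after thinning each barcode to 1000 UMIs, which left 149 members.

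Lymphatic genes were found in more of the members than of the high endothelial barcodes, but after thinning not in more than of the Ackr4-positive or Marco-positive ones. Prox1, Mmrn1, Flt4 or Reln was detected in 141 members. After thinning, the share was 65.8% of members (57.6 to 73.3), 29.0% of the others and 3.57% of high endothelial barcodes (1.73 to 6.47), and before it 94.0%, 35.1% and 10.6%. It was 77.2% of Ackr4-positive (72.6 to 81.3) and 68.3% of Marco-positive barcodes (62.1 to 74.1) after thinning, and 90.6% and 75.6% before. Pecam1, Cdh5, Tie1 or Erg was detected in 144 members, and after thinning in 71.8% of members, 86.2% of the others, 77.4% of Ackr4-positive, 79.4% of Marco-positive and 91.8% of high endothelial barcodes. Prox1 ranged from 0 to 29 UMIs over the members with a median of 3.00, and 132 members had it. Lyve1, a hyaluronan receptor of lymphatic endothelium, ranged from 0 to 53 UMIs with a median of 4, against 5.50 in Marco-positive barcodes and 0 in Ackr4-positive ones. The Prox1 and Lyve1 medians were both 0 in the high endothelial barcodes.

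Against the other shared barcodes, 3208 genes had a mean of at least 50 CPM. Of these, 276 were at least 2-fold higher in members, which is 8.60%, and 258 were at least 2-fold lower, which is 8.04%. The median log2 ratio over all of them was 0.04. Against Ackr4-positive barcodes, 256 of 3263 genes were higher (7.85%) and 245 lower (7.51%). Against Marco-positive barcodes, 81 of 3217 were higher (2.52%) and 146 lower (4.54%). The minimum is a mean over both groups, so that a gene under 50 CPM in one group entered through the other, where it was higher. Against the other shared barcodes 129 of the 276 higher genes entered through the members alone, and 153 of the 258 lower genes through the others alone. The list counts below include such genes. These are descriptions of barcodes of 1 library selected on measured values, and no p-value was computed.

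**Figure D3:**
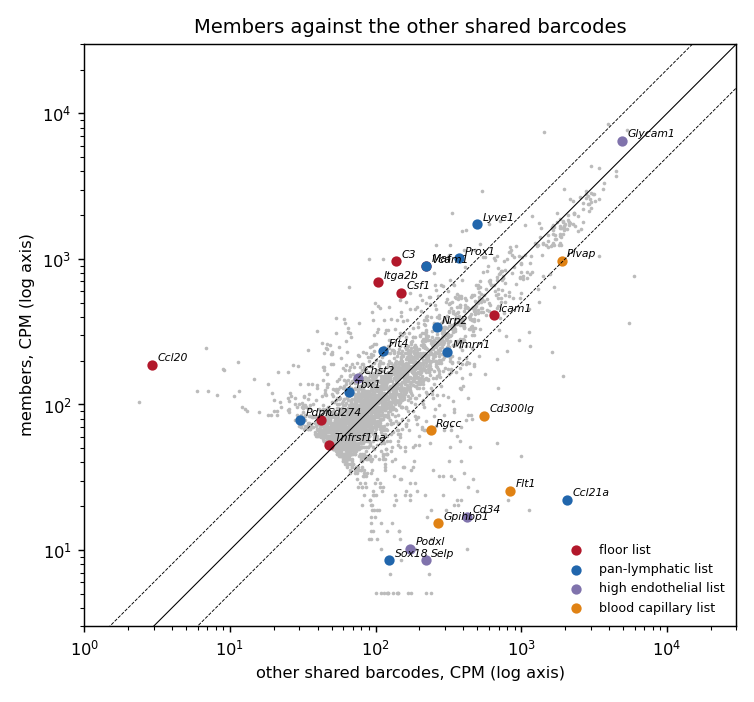
CPM of each of the 3208 genes in the other shared barcodes (x axis, log scale) and in members (y axis, log scale); the solid line marks equal levels and the dashed lines 2-fold, and genes at 0 in members are drawn at the 5.10 CPM of 3 counts. Floor genes such as C3, at 965 against 138 CPM, lie above the upper dashed line, and blood capillary genes such as Flt1, at 25.5 against 841 CPM, lie below the lower.

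Genes of the floor list were higher in members than in the other shared barcodes, and mostly similar in the Marco-positive ones. Of 8 that could be compared, 5 were at least 2-fold higher and none was 2-fold lower, with a median log2 ratio of 1.99 against 0.04 over all genes. The 5 were C3, Ccl20, Csf1, Itga2b and Vcam1. Ccl20 entered through the members alone, and of the 5 genes at or above 50 CPM in both groups, 4 were higher. Against Ackr4-positive barcodes 5 of 8 were higher, 2 lower and 1 neither, and Ccl20 and Itga2b among the higher and Bmp4 among the lower were under 50 CPM in one group. Against Marco-positive barcodes Ccl20, which entered through the members alone, was higher, and the other 6 genes were neither.

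C3, the central protein of complement, had 0 to 17 UMIs in a member with a median of 3.00. Its level was 965 CPM in members, 138 CPM in the others, 52.3 CPM in Ackr4-positive, 720 CPM in Marco-positive and 4.15 CPM in high endothelial barcodes. The log2 ratio to the others was 2.80 (2.65 to 2.95). After thinning, 62.4% of members had a C3 UMI, 41.6% of Marco-positive and 0.714% of high endothelial barcodes; before thinning these were 88.0%, 58.0% and 1.77%. C3 therefore set members apart from Ackr4-positive barcodes by 18.4-fold (14.2 to 24.3) and from Marco-positive ones by 1.34-fold (1.19 to 1.51).

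Ccl20, the chemokine ligand of Ccr6, was found in 27 members, of which 15 had at least 3 UMIs. It stood at 187 CPM in members and 2.92 CPM in the others, with a log2 ratio of 6.00 (5.33 to 6.73). No Marco-positive or high endothelial barcode had a UMI. Within the members it was concentrated where Marco was absent, at 262 CPM (214 to 316) without a Marco UMI and 16.7 CPM (3.45 to 48.9) with one.

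Itga2b, the integrin subunit CD41, stood at 691 CPM in members, 104 CPM in the others and 572 CPM in Marco-positive barcodes. Csf1, the growth factor of macrophages, stood at 583, 149 and 459 CPM in the same order. Vcam1, an adhesion molecule for leukocytes, stood at 892, 221 and 566 CPM. Icam1, another adhesion molecule for leukocytes, was at 411 CPM in members and 647 CPM in the others. Tnfrsf11a, the receptor RANK, was at 52.7 and 47.8 CPM, with a log2 ratio of 0.14 (-0.44 to 0.67). Bmp4, with 1 UMI in the members, and Ltbr, with 15, were under the minimum level.

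**Figure D4:**
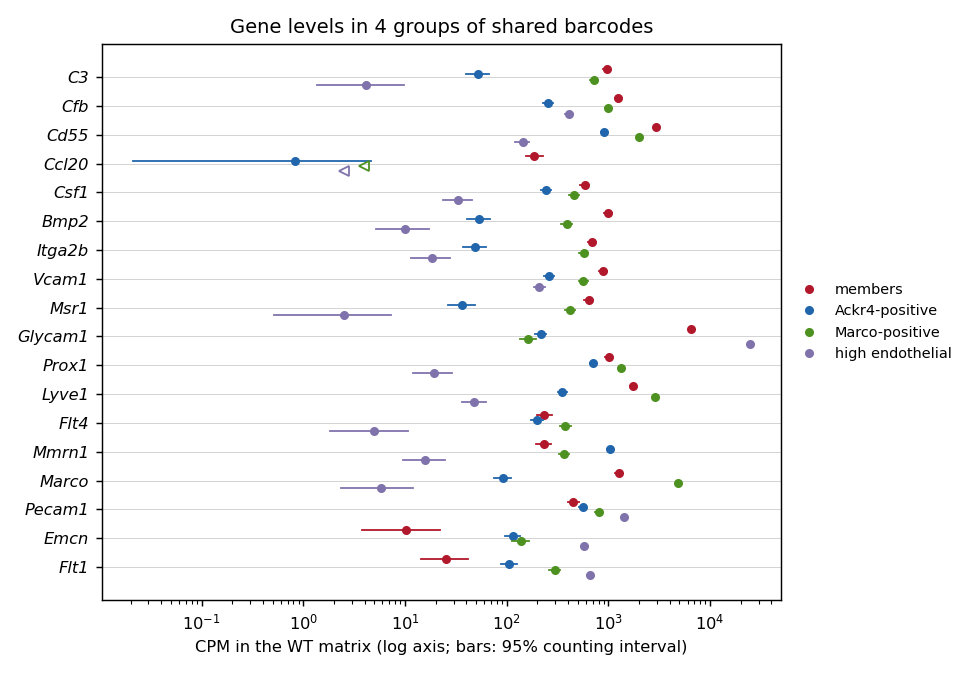
CPM in the WT matrix (x axis, log scale) of 18 genes in members, Ackr4-positive, Marco-positive and high endothelial barcodes; points are levels, bars are 95% counting intervals, and open triangles mark the level of 3 counts where a gene had 0. Members and Marco-positive barcodes lie close for C3, Itga2b and Csf1, and far apart for Ccl20 and Glycam1.

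Of the complement list, the 3 genes compared here were all higher: C3, Cfb and Cd55. Cfb, factor B of the alternative pathway, stood at 1254 CPM in members and 325 CPM in the others. Cd55, a brake on complement at the cell surface, was found in 147 members with a median of 11.0 UMIs. It stood at 2920 and 538 CPM, 906 CPM in Ackr4-positive and 1994 CPM in Marco-positive barcodes. C4b and Cfi were at 0 in the members.

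Lymphatic genes differed by gene and by the group compared. Of 10 genes of the pan-lymphatic list, 5 were higher, 2 lower and 3 neither, with a median log2 ratio of 0.98. Prox1 stood at 1013 CPM in members, 375 CPM in the others, 712 CPM in Ackr4-positive, 1324 CPM in Marco-positive and 19.1 CPM in high endothelial barcodes. Lyve1 stood at 1733, 500, 352, 2841 and 48.2 CPM in the same order. Maf, a transcription factor, Pdpn, the mucin podoplanin, and Flt4, the receptor of the lymphatic growth factor Vegfc, were the other 3 that were higher. Ccl21a and Sox18 were the 2 that were lower. Both entered through the others alone, and Pdpn entered through the members alone. Of the 7 genes at or above 50 CPM in both groups, 4 were higher and none was lower. Mmrn1 stood at 231 CPM in members and 1034 CPM in Ackr4-positive barcodes. Against the 1050 other shared barcodes with a UMI of Prox1, Mmrn1, Flt4 or Reln, the median of the list was -0.14.

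Pan-endothelial genes were lower or similar. Of 12 genes, 7 were at least 2-fold lower, 5 neither and none higher, with a median log2 ratio of -1.17. Tek, Esam and Emcn among the lower entered through the others alone. Of the 9 at or above 50 CPM in both groups, 4 were lower, with a median log2 ratio of -0.66. Pecam1 stood at 452 CPM in members and 1127 CPM in the others. Emcn, the sialomucin endomucin, had 6 UMIs in 4 members, at 10.2 against 425 CPM.

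Ceiling genes stood at a summed 117 CPM in members and 1169 CPM in the others. The 4 that could be compared entered through the others alone, which fixed their direction, so that their count shows nothing further. Cd36, a fatty acid receptor, stood at 18.7 CPM in members, 305 CPM in the others and 1098 CPM in Ackr4-positive barcodes. Cav1, which forms caveolae, stood at 27.2 and 433 CPM. Of 5 blood capillary genes 4 were lower, 2 of them entered through the others alone, and none was higher, with Flt1, the Vegf receptor, at 25.5 and 841 CPM. Of 3 arterial genes 1 was lower and 2 neither. Of 4 valve genes 2 were higher (Cldn11 and Itga9), 1 lower (Vwf) and 1 neither. The lower arterial gene, Sox17, and the lower valve gene, Vwf, entered through the others alone.

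Medullary genes had UMIs in 121 members, with Stab1 found in 108 and Marco in fewer. Of 6 genes, 4 were higher than in the others, 1 lower and 1 neither, and against Marco-positive barcodes, with Marco left out, 3 of 5 were lower and none higher. Clec4g, higher than in the others, entered through the members alone. Itih5 was lower in both comparisons and entered through the other group alone. Marco was detected in 41 members, of which 23 had at least 10 UMIs, and 109 had none. The level was 1261 CPM in members and 4785 CPM in Marco-positive barcodes, which were chosen by it. The members with Marco were at 914 CPM Postn, 111 CPM Madcam1 and 44.6 CPM Coch, against 1540, 496 and 459 CPM in those without. Postn, Madcam1 and Coch selected the members, so that their levels within members depend on the selection. Lyve1 stood at 2898 CPM with Marco and 1222 CPM without, and Prox1 at 1360 and 860 CPM. C3 stood at 875 CPM (743 to 1023) with Marco and 1004 CPM (910 to 1106) without, and Cd55 at 2803 and 2972 CPM, intervals that overlap.

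The 55 members with no UMI of Madcam1 or Coch differed from the rest in several genes. Marco stood at 3160 CPM in them and 191 CPM in the 95 members with Madcam1 or Coch. Bmp2 stood at 542 CPM (448 to 651) and 1248 CPM (1138 to 1366), Vcam1 at 552 and 1083 CPM, Mmp9 at 61.3 and 348 CPM, and Ccl20 at 42.5 and 268 CPM. Csf1 and Cfb did not separate them, at 528 (435 to 636) against 613 CPM (537 to 698) and at 1241 against 1261 CPM.

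Glycam1, the sulfated mucin of high endothelial venules, was also high in members. It was detected in 108 members, 54 of which had at least 10 UMIs, and ranged from 0 to 400 UMIs with a median of 4. It stood at 6476 CPM in members, 215 CPM in Ackr4-positive, 162 CPM in Marco-positive and 24509 CPM in high endothelial barcodes. After thinning, 61.1% of members had a UMI, 7.35% of Ackr4-positive, 8.64% of Marco-positive and 67.5% of high endothelial barcodes; before thinning these were 72.0%, 13.8%, 16.4% and 78.4%. Ccl21a, a chemokine of the same venules, did not follow it. It had 13 UMIs in members, so that members held 293 Glycam1 UMIs for each Ccl21a UMI, high endothelial barcodes 2.81, Ackr4-positive 6.02 and Marco-positive 2.73. Ccl21a has near-identical copies, and how reads were split among them is uncertain. Chst4, a sulfotransferase of these venules, was at 0 in the members, and of 5 high endothelial genes compared with the others 1 was higher (Chst2), 3 lower, which entered through the others alone, and 1, Glycam1, neither.

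Glycam1 went with Madcam1 and against Marco from member to member. The Spearman correlation over the 150 members was 0.51 with Madcam1, 0.41 with Coch, 0.12 with Postn and -0.58 with Marco, and the Pearson r was 0.23, 0.16, -0.03 and -0.21. Lyve1 and Marco had a Spearman correlation of 0.45. The points share 1 library and differ in depth, and the selection sets a minimum for the sum of Madcam1, Coch and Postn. Glycam1 stood at 9143 CPM in the members without Marco and 396 CPM in those with it.

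**Figure D5:**
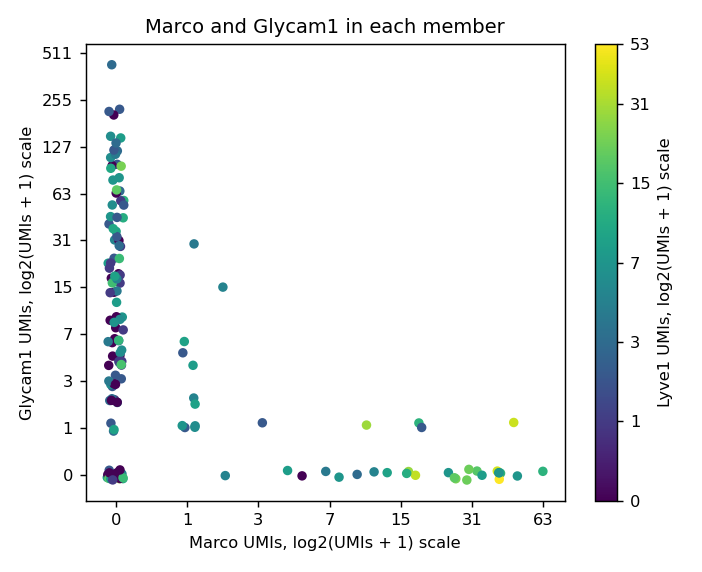
UMIs of Marco (x axis) and Glycam1 (y axis) in each of the 150 members, both on a log2(UMIs + 1) scale with points jittered, coloured by Lyve1 UMIs. The 23 members with at least 10 Marco UMIs sit at the bottom, and high Glycam1 counts are in members without Marco.

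By size alone, the highest ratios to the others reported here after Ccl20 were those of Col3a1, Mmp9, Col14a1, Cpxm1, Kcnj2, C1ql3, Rgs4, Bmp2, Astn1 and Colq. Col3a1 came from 1 member, the member rich in stromal UMIs. The other members held no Col3a1 UMI. The rest were spread over 36 to 119 members. Mmp9, a gelatinase, was found in 74 members at 245 CPM against 6.90 CPM in the others, with a log2 ratio of 5.15 (4.68 to 5.63). Bmp2, a bone morphogenetic protein, was found in 119 members at 994 CPM, against 90.8 CPM in the others, 53.2 CPM in Ackr4-positive and 388 CPM in Marco-positive barcodes. C1ql3 was found in 63 members at 195 against 11.4 CPM, and Rgs4, a regulator of G protein signaling, in 36 at 116 against 8.10 CPM.

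The lowest ratios were those of Serpinb1a, Ccl21a, Dclk1, Entpd1, Igfbp3, Cdh13, Aqp1, Pdgfb, Vwf, Pglyrp1, Palmd and Emcn. Each had at most 13 UMIs over all members. Aqp1, a water channel, stood at 18.7 CPM in members, 1131 CPM in the others and 1643 CPM in high endothelial barcodes. Vwf, the von Willebrand factor of blood endothelium, had 2 UMIs in members and stood at 175 CPM in the others.

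Against Ackr4-positive barcodes the highest were Ccl20, Rgs5, Mmp9, Il4i1, Rgs4 and Cpxm1, and the lowest Cdh13, Igfbp5, Prss23, Klrb1f, Col18a1 and Bmp4. Rgs5 stood at 168 CPM in members and 0.831 CPM there, and Il4i1, a secreted amino acid oxidase, at 318 and 4.15 CPM. Prss23 stood at 6.80 and 585 CPM. Against Marco-positive barcodes the highest reported here were Ccl20, Glycam1, Col3a1, Rgs5 and Sulf1, and the lowest Igfbp3, Aqp1, Emcn, Ly6a, Flt1 and Podxl. Sulf1, which removes sulfate from heparan sulfate, stood at 98.5 and 5.28 CPM, and Ly6a at 22.1 and 284 CPM.

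Secreted signals differed by gene. Of 8 chemokines and decoy receptors compared with the others, 2 were higher (Ccl20 and Cxcl16), 2 lower (Ccl21a and Cxcl12) and 4 neither, and each of the higher and lower ones entered through one group alone. Cxcl12 stood at 30.6 CPM in members and 470 CPM in the others. Of 5 survival and growth factors, 3 were higher, Csf1, the alarmin Il33 at 262 against 46.7 CPM and the growth factor Ptn at 360 against 61.2 CPM. The stem cell factor gene Kitl, at 192 against 436 CPM, and Pdgfb were lower. Il33 entered through the members alone and Pdgfb through the others alone.

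Of 8 genes of the BMP and TGF-beta list, 2 were higher (Bmp2 and Ltbp1), 3 lower, which entered through the others alone, and 3 neither. Ltbp1 entered through the members alone. Id1 and Id3, targets of BMP signaling, stood at 23.8 against 217 CPM and 30.6 against 347 CPM, and 12 of the 14 Id1 UMIs were in 1 member. Of 10 genes of the TNF and NF-kappaB list, 1 was higher and 9 neither. It was Birc3, an inhibitor of apoptosis, at 330 against 137 CPM. Nfkb2 stood at 251 against 166 CPM and Relb at 190 against 105 CPM.

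Of 11 adhesion and scavenger genes, 5 were higher and 4 lower. Alcam and Bst1 among the higher entered through the members alone, and Jam2 and Cd200 among the lower through the others alone. Of the 7 at or above 50 CPM in both groups, 3 were higher and 2 lower. Msr1, a scavenger receptor, stood at 644 CPM in members, 65.5 CPM in the others, 36.6 CPM in Ackr4-positive and 421 CPM in Marco-positive barcodes. Alcam stood at 223 against 49.9 CPM and Bst1 at 110 against 28.1 CPM. Cd44, the hyaluronan receptor, had a mean under 50 CPM and was not among the genes compared, with 35 UMIs in 28 members at 59.5 against 3.72 CPM.

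Of 7 antigen presentation genes 1 was higher and 6 neither. It was Cd74, the invariant chain, at 610 CPM in members, 261 CPM in the others, 55.7 CPM in Ackr4-positive and 209 CPM in Marco-positive barcodes. The class II genes H2-Aa, H2-Ab1 and H2-Eb1 had 7, 16 and 3 UMIs in the members. Of 13 matrix genes 2 were higher (Nid1 and Mgp), 3 lower and 8 neither. Without the 2 members rich in stromal or epithelial UMIs, 1 of 12 was higher (Nid1) and 4 were lower. Col4a1 stood at 129 against 694 CPM and Nid1, the basement membrane protein nidogen, at 292 against 144 CPM. Mgp, an inhibitor of calcification, had 160 UMIs, of which 146 were in the member rich in stromal UMIs. Without the 2 members it stood at 24.3 CPM, against 62.3 CPM in the others.

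Of 9 lymphatic growth receptor genes 2 were higher (Flt4 and Itga9), 3 lower and 4 neither, and of 4 sphingosine phosphate and lipid genes 2 were lower and 2 neither. Among the lower genes of these lists, Nrp1, Tek and Plpp3 entered through the others alone. Plpp3, a lipid phosphatase, stood at 34.0 against 406 CPM. Of 8 early response genes 1 was lower and 7 neither; that was Ier2, at 279 against 967 CPM. Cell cycle genes had UMIs in 10 members, and 1 member held 36 of them. None of the cell cycle, immune or epithelial genes reached the minimum level for the comparison.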

How the data were processed

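Droplet-based 10x single-cell RNA-seq was made from organoids of 3 genotypes, with 1 library each. The authors deposited raw counts of UMIs per gene and barcode, for 32285 genes on mm10, without normalization. The file headers name Cell Ranger 6.0.1, and the submitters' processing notes name 2.1.1. The deposited libraries held 11411 (WT), 10706 (LApc) and 12068 (LApcL) barcodes and 87185429, 118867221 and 112057783 UMIs. Only barcodes called as cells were present. Genotypes came from the labels, and genotypes were not compared, because the members are the same barcodes in every library.

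UMIs were summed over barcodes and scaled to CPM. Ratios have exact conditional binomial intervals, levels exact Poisson intervals and shares Clopper-Pearson intervals, at 95%. A count of 0 was set at 3 counts. Genes needed a mean of 50 CPM over both groups, without the 13 mitochondrial genes and the selecting genes, and were called at a 2-fold ratio. Doublets were not removed. Scrublet (scanpy 1.11.5) marked 0 barcodes by its automatic threshold and so did not work, and removing the 309 highest scores of 6217 was an alternative. Named genes were those of 25 lists (225 genes, all found), the 12 highest and 12 lowest against the others, and the 6 highest and 6 lowest against each of 2 like groups; 2 genes that met these rules are not reported here. Members and lists were chosen with earlier results of these data known. Python 3.11.15 with numpy 2.4.6 and scipy 1.17.1 was used. Counts were simulated for members against the other shared barcodes, with 3083 genes and 200 of them to be changed 4-fold. The intervals covered the true ratio for 95.7%, and all 158 changed genes that passed the filter were called. The simulated counts had only the Poisson error that the intervals assume, without differences between barcodes. The result therefore checks the calculation only.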

Additional observations from a re-analysis of the deposited data

Results flagged for a closer look

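Barcodes outside the shared set are in no comparison above. Of 3072 such barcodes within the mitochondrial limit in the WT library, 7 met the same selection (0.228%, 0.0917 to 0.469%), above the 3 that a count of 0 allows. They held 32 Postn, 2 Coch and 0 Madcam1 UMIs, 198 Epcam UMIs with Epcam in all 7, no Pecam1 and no C3, at 22261 to 39749 UMIs a barcode. Prox1 had 27 UMIs in them. In LApc 3 of 3616 and in LApcL 1 of 4725 barcodes met it, none above that limit.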

How the results depend on the processing

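No paired analysis was possible because each genotype had 1 library and no test was run. The number of members, 150 in the main selection, was 97 with a threshold of 5 UMIs and 88 with at least 2 of the selecting genes detected, an alternative chosen after seeing the data. Genes at least 2-fold higher than in the others, 276, were 141 against lymphatic barcodes and 1562 without the CPM filter, where genes needed 10 UMIs; genes at least 2-fold lower, 258, were 1357 without it. The C3 log2 ratio was 2.64 at a threshold of 5, 3.16 with each barcode weighted the same, 1.59 against lymphatic barcodes and 2.97 with at least 2 selecting genes. The pan-lymphatic median of 0.98 became -0.14 against lymphatic barcodes and 0.55 with at least 2 selecting genes. Of 276 values of 23 named genes, 216 stayed within their intervals, 59 moved beyond them and 1 reversed. The reversal was Col3a1 at a threshold of 5, where no UMI was left in members; its -0.43 is 3 counts set against the others, an upper bound and not a measured ratio. The low ratios rest on few counts, 1 to 13 UMIs in members, which limits their precision.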
